A study of Mus musculus with 9 samples.

Results

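Cholesterol synthesis, uptake and efflux was followed in mouse colon as a set of 31 genes, taken by symbol from a table of 21959 genes. All 31 were in the table, and all 31 passed the expression filter that left 14921 genes to test. By role they were 19 enzymes of the synthesis pathway, 6 genes that sense sterols or regulate the pathway, and 6 genes of storage, efflux and uptake. RNA sequencing covered 9 colon libraries in 3 groups of 3, all from mice of wild-type genotype. Blank mice had no treatment, Model mice were given dextran sulfate sodium (DSS), and CDs mice were given DSS together with carbon dots made from lotus node charcoal. DSS is a polymer that damages the colon lining when mice take it up, and is used to induce a model of ulcerative colitis. Strain, sex, age, doses and sampling days are not stated in the labels, and none of the 9 libraries came from mice given the carbon dots without DSS.

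Cells obtain cholesterol by making it from acetyl-CoA or by taking up lipoproteins. When membranes of the endoplasmic reticulum are poor in sterol, the escort protein SCAP carries the precursors of the SREBP transcription factors to the Golgi, where they are cut and released to switch on the synthesis enzymes. When sterol is plentiful, INSIG proteins hold SCAP back, surplus cholesterol is esterified, and liver X receptors, which are activated by oxysterols, switch on the exporters ABCA1 and ABCG1. In the colon the epithelium renews constantly and needs cholesterol for new membranes, while macrophages clear lipid from dying cells and export it.

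The libraries held 13868864 to 19940300 counts, so that 3 reads corresponded to 0.150 to 0.216 CPM (reads of a gene scaled to a common library size, after edgeR normalisation). Levels are given in CPM, in the order of replicate 1, 2 and 3 within each group. Epithelial markers were abundant in every library, with a summed level over 13 genes of 10814 to 28968 CPM. Markers of other organs were also present in some libraries. The summed level of 7 genes of pancreatic acinar cells was 6170.1 CPM in Model 1, 52519.8 CPM in Model 3 and 226 CPM in CDs 1, against at most 1.103 CPM in the other libraries. Genes of prostate and seminal vesicle summed to 1497 CPM in Blank 2 and 169 CPM in Blank 3, against at most 2.57 CPM elsewhere. Counts of members are therefore also given without these libraries.

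Most of the synthesis pathway was lower in the DSS group than in untreated mice. Of the 19 enzymes, 17 fell, 1 rose and 1 did not pass the test in Model versus Blank (edgeR quasi-likelihood F test, adjusted p under 0.05 over the 14921 genes). In the same comparison 19.6% of all tested genes were called lower, 24.5% were called higher and 44.1% were called in either direction. The median log2 difference of the 19 enzymes was -1.07, against -0.03 over all genes. In 18 of the 19 the 3 Model libraries did not overlap the 3 Blank libraries, as in 61.0% of all genes. Without Model 1, Model 3 and CDs 1, 15 enzymes were called lower and 1 higher, among 6981 calls over all genes. That fit leaves Model 2 as the only Model library, and its spread is taken from the other groups on the assumption that it varies as they do. The same assumption holds for Blank 1 in the fit without Blank 2 and Blank 3, where 2 enzymes (Acat2 and Idi1) were called lower. In this second fit 18 of 19 had negative differences with a median of -0.69, and the calls over all genes went from 6574 to 1536.

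**Figure D1:**
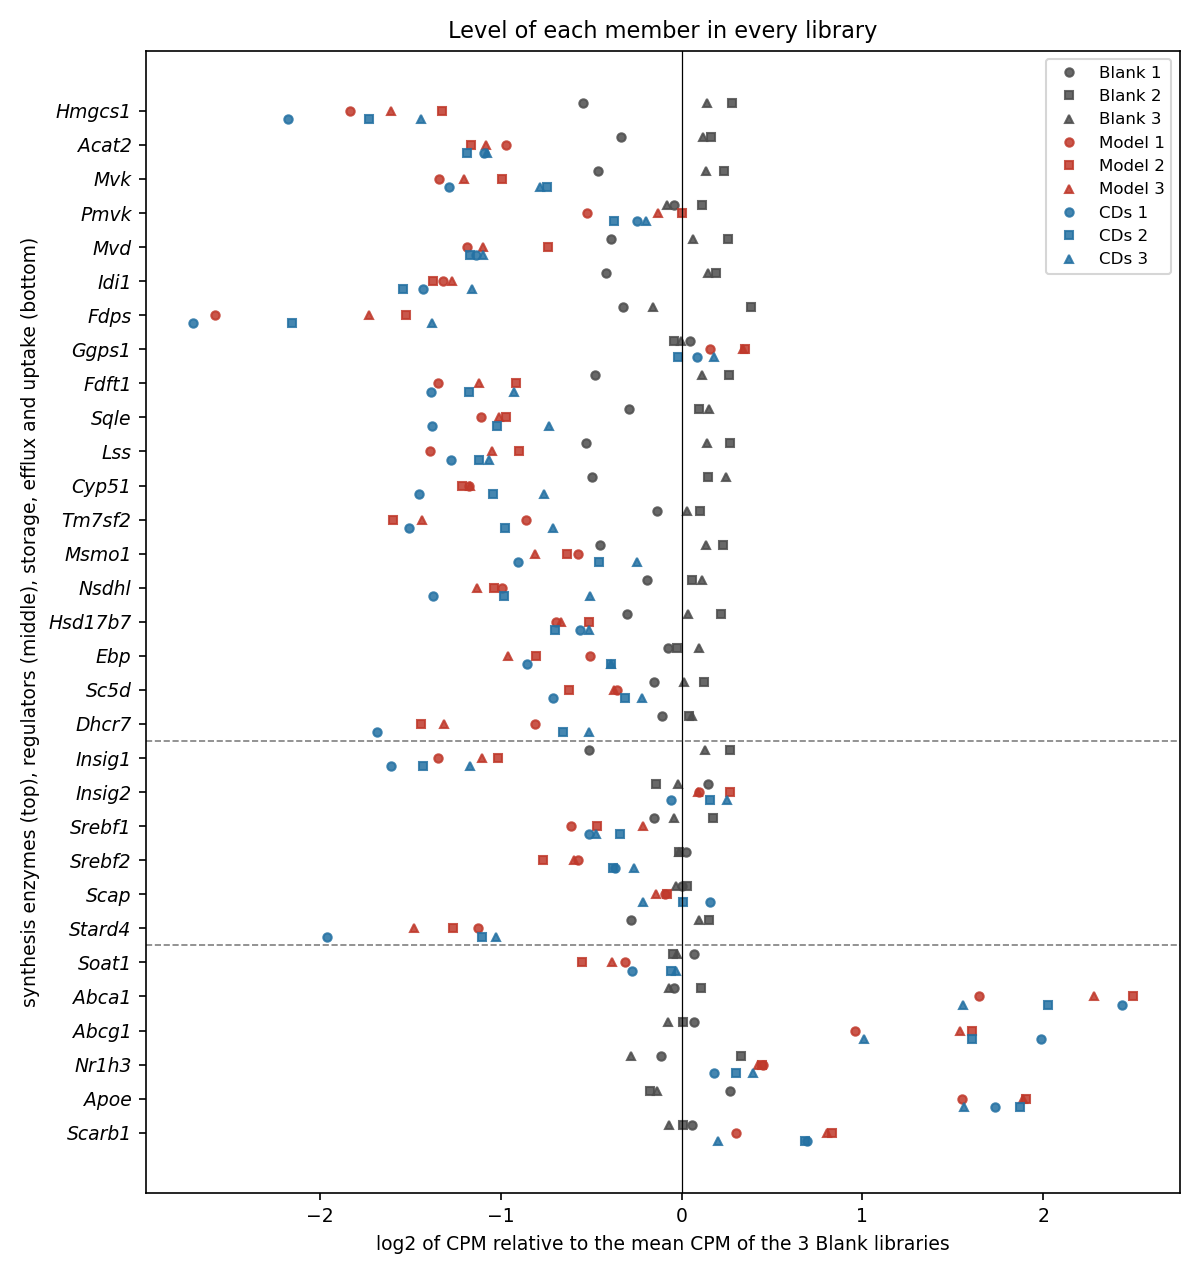
Level of each of the 31 genes in every library, as the log2 of its CPM relative to the mean of the 3 Blank libraries (x axis), 1 row per gene; colours are groups and symbols are replicates. In 16 of the 19 synthesis enzymes all 6 libraries of DSS-treated mice lie to the left of all 3 Blank libraries, and in Abca1, Abcg1, Apoe and Scarb1 they lie to the right. Over all tested genes, Model did not overlap Blank in 61.0% and CDs did not overlap Blank in 54.1%. The share of all genes with all 6 libraries on the same side was not computed.

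The first steps join acetyl-CoA units and reduce the product to mevalonate. Acat2, the cytosolic thiolase that makes acetoacetyl-CoA, stood at 36.7, 51.9 and 50.3 CPM in Blank, 23.6, 20.7 and 21.9 in Model, and 21.8, 20.3 and 22 in CDs. Every library of DSS-treated mice was below every Blank library, and the fall in Model was 2.1-fold (log2 -1.07, SE 0.14, edgeR adjusted p = 0.000749). Its near-identical copy Acat3 went the other way, with 3, 4 and 7 counts in Blank, 21, 85 and 45 in Model, and 19, 13 and 16 in CDs. Acat2 itself held 325, 435 and 327 counts in Model. Hmgcs1, the synthase that makes HMG-CoA (Ensembl ENSMUSG00000093930, chromosome 13, 120151915 to 120169796, forward strand, as the deposited table gives it), was the most abundant enzyme per gene length. Its level was 322, 569.8 and 519 CPM in Blank, 132, 188 and 155 in Model, and 104, 142 and 173 in CDs, a 2.97-fold fall in Model (log2 -1.57, SE 0.26, edgeR adjusted p = 0.00191). Blank 1 was the lowest Blank library, yet lay above the highest Model or CDs library by more than the range within either group. Mvk, which phosphorylates mevalonate, was at 18.8, 30.5 and 28.5 CPM in Blank, 10.2, 13 and 11.3 in Model, and 10.6, 15.5 and 15.1 in CDs and fell by 2.25-fold (log2 -1.17, SE 0.22, edgeR adjusted p = 0.00341). Pmvk, the next kinase, did not pass the test: it was at 26.3, 29.3 and 25.6 CPM in Blank and 18.8, 27.1 and 24.7 in Model, so that Model 1 and Model 3 were below every Blank library and Model 2 was not (log2 -0.20, SE 0.15, edgeR adjusted p = 0.29). Mvd, whose product is the isoprene unit isopentenyl diphosphate, was at 28.6, 44.7 and 39.1 CPM in Blank, 16.5, 22.5 and 17.5 in Model, and 17.1, 16.7 and 17.5 in CDs and was lower in all 6 libraries of DSS-treated mice than in Blank (log2 -0.99, SE 0.18, edgeR adjusted p = 0.00312).

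The middle of the pathway links isoprene units into longer chains. Idi1, which interconverts the isoprene isomers, was at 83, 126 and 123 CPM in Blank, 44.4, 42.7 and 46 in Model, and 41.1, 38.1 and 49.6 in CDs, a 2.5-fold fall (log2 -1.32, SE 0.17, edgeR adjusted p = 0.000624). It kept its call in all 19 alternative analyses. Fdps makes farnesyl diphosphate, the branch point toward sterols or protein prenylation. Its level was low, at 7.65, 12.5 and 8.56 CPM in Blank, 1.6, 3.32 and 2.88 in Model, and 1.47, 2.15 and 3.68 in CDs, and the fall was the largest of the 31 genes on the log2 scale (log2 -1.86, SE 0.38, edgeR adjusted p = 0.00504). The table also lists Gm43738, which overlaps Fdps on the same strand over 7512 bases and averaged 0.111 counts per library against 73.4 for Fdps; reads that fit both genes may not have been counted, so the level of Fdps is uncertain. Ggps1 carries farnesyl diphosphate away from sterols to geranylgeranyl diphosphate, the lipid attached to many small GTPases. It was the only enzyme called higher, at 49.8, 46.8 and 48.1 CPM in Blank, 53.8, 61.5 and 60.9 in Model, and 51.2, 47.6 and 54.6 in CDs (log2 0.28, SE 0.09, edgeR adjusted p = 0.0329). The span of Ggps1 shares 257 bases with Arid4b on the opposite strand, a gene with a mean of 1276 counts against 822 for Ggps1. Part of the Ggps1 count is therefore uncertain. The Model and Blank libraries did not overlap, but the difference was 1.22-fold, and the call was lost without any 1 of Blank 1, Blank 2, Blank 3, Model 2 or Model 3 (highest adjusted p over the 19 alternatives, 0.317).

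Fdft1, Sqle and Lss turn farnesyl diphosphate into lanosterol, the first sterol. Fdft1, squalene synthase and the first committed step, was at 109, 181 and 163 CPM in Blank, 59.5, 80 and 69.7 in Model, and 57.9, 66.9 and 79.6 in CDs (log2 -1.12, SE 0.20, edgeR adjusted p = 0.00312). Its span overlaps 774 bases of Ctsb on the opposite strand, a gene with a mean of 16979 counts against 1467 for Fdft1. Because the protocol marks no strand, part of the Fdft1 count is uncertain. Sqle, the oxygen-dependent squalene epoxidase, was at 148, 193 and 201 CPM in Blank, 83.7, 92.2 and 89.5 in Model, and 69.4, 88.9 and 109 in CDs and fell by 2.04-fold (log2 -1.03, SE 0.17, edgeR adjusted p = 0.0021). Lss, which closes the ring system, was at 49.1, 85.1 and 77.8 CPM in Blank, 26.9, 37.9 and 34.2 in Model, and 29.2, 32.5 and 33.7 in CDs (log2 -1.09, SE 0.21, edgeR adjusted p = 0.00356). For all 3 genes the Blank libraries were above every library of DSS-treated mice.

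After lanosterol, 8 of the enzymes trim and rearrange the ring to give cholesterol, and all 8 fell in Model. Cyp51, the lanosterol demethylase, was at 153, 239.6 and 256 CPM in Blank, 95.7, 93.2 and 96.2 in Model, and 79.3, 105 and 128 in CDs (log2 -1.19, SE 0.22, edgeR adjusted p = 0.00302). The Model libraries lay within 1.03-fold of one another, the narrowest spread of any enzyme in Model. The span of Cyp51 shares 166 bases with Akap9 on the opposite strand, a gene with a mean of 3432 counts against 2089 for Cyp51. Tm7sf2, a sterol reductase, was at 19.2, 22.6 and 21.5 CPM in Blank, 11.6, 6.98 and 7.78 in Model, and 7.42, 10.7 and 12.9 in CDs (log2 -1.27, SE 0.24, edgeR adjusted p = 0.00382), and it shares 532 bases with Vps51 on the same strand. Msmo1, Nsdhl and Hsd17b7 together remove methyl groups from the ring. Nsdhl was at 50.6, 60.2 and 62.4 CPM in Blank, 29, 28.1 and 26.3 in Model, and 22.3, 29.2 and 40.7 in CDs and fell by 2.07-fold (log2 -1.05, SE 0.20, edgeR adjusted p = 0.0034). Msmo1 was at 178, 285 and 267 CPM in Blank, 164, 157 and 139 in Model, and 129.9, 177 and 205 in CDs and fell by 1.59-fold (log2 -0.67, SE 0.21, edgeR adjusted p = 0.0309); its call was lost without Blank 2, Blank 3, Model 2 or Model 3, and without Model 1, Model 3 and CDs 1 together. Hsd17b7 was at 37.8, 54.3 and 47.7 CPM in Blank, 28.8, 32.8 and 29.4 in Model, and 31.5, 28.7 and 32.7 in CDs (log2 -0.62, SE 0.14, edgeR adjusted p = 0.00777), and its call was lost when Model 1, Model 3 and CDs 1 were left out together. Of these 3 genes, Msmo1 alone had a CDs library (CDs 3) above its lowest Blank library. Ebp, a sterol isomerase, was at 57.6, 59.8 and 64.9 CPM in Blank, 42.8, 34.8 and 31.3 in Model, and 33.6, 46.3 and 46.3 in CDs (log2 -0.74, SE 0.16, edgeR adjusted p = 0.00576). Sc5d, a desaturase, had the smallest log2 difference of the 17 enzymes that fell, at 114, 138 and 128 CPM in Blank, 99, 82.5 and 98 in Model, and 77.6, 102 and 109 in CDs (log2 -0.45, SE 0.14, edgeR adjusted p = 0.0329), and its call was also lost without Blank 2, Blank 3, Model 2 or Model 3. Dhcr7, the reductase that completes cholesterol, was at 93.7, 104 and 105 CPM in Blank, 57.5, 37.2 and 40.6 in Model, and 31.4, 64 and 70.9 in CDs (log2 -1.16, SE 0.28, edgeR adjusted p = 0.0107). Its CDs libraries were spread widely, with CDs 1 below every Model library and CDs 2 and CDs 3 above them.

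Because the enzymes moved together, the promoter windows of the set were searched for 3 motifs on both strands. RefSeq windows (GRCm38.p6, 250 bases before to 50 bases after the start) were at hand for 25 of the 31 genes, 16 of them enzymes; Sqle, Stard4, Scarb1, Abcg1, Fdft1 and Fdps had none. A gene with several starts was counted once, if any of its windows held the motif. Only the exact letters of each motif were matched, with N as any base, so variant or more distant elements were not counted. The core of the sterol response element bound by SREBP proteins, TCACNCCAC, was found in 1 enzyme, Hmgcs1, as well as in 1.44% of all 27025 genes with a window and in 1.38% of those also tested here. It is shown in capitals in the stretch at chr13:119690189-119690248 (GRCm38.p6, forward strand), where it spans bases 137 to 129 before the start.
Hmgcs1 distal: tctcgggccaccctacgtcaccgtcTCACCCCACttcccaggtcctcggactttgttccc
CACGTG, the E-box form that SREBP proteins also bind, was in 3 of 16 enzymes (Dhcr7, Hsd17b7 and Sc5d), in Insig1, Scap and Abca1, as well as in 8.09% of all genes with a window and in 11% of those also tested here. CCAAT, the box bound by NF-Y, a known partner of SREBP proteins on sterol promoters, was in 15 of 16 enzymes, in 4 of 5 regulators and in 1 of 4 storage, efflux and uptake genes (Soat1). It was in 41.1% of all genes with a window, and in 42.3% of the 11731 that were also tested here. The box was also in genes that did not fall: Ggps1, which was called higher in Model, and Pmvk and Insig2, which did not pass the test. Acat2, which fell, was the 1 enzyme with a window and no box. In the 14 called enzymes that carry a box before the start, Ggps1 among them, the nearest one lay 12 to 62 bases upstream, with a median of 37. The following 6 stretches of 50 bases were chosen after the search to show the boxes beside genes whose levels fell. Capitals mark CCAAT, or ATTGG where the box is on the opposite strand, and all are written along the gene's own strand on GRCm38.p6, whose positions differ from those in the deposited table. Their positions in order are chr13:8885556-8885605 (forward strand), chr15:82147112-82147161 (forward strand), chr13:119690284-119690333 (forward strand), chr5:28071174-28071223 (forward strand), chr5:4104699-4104748 (reverse strand) and chr8:122443423-122443472 (reverse strand).
Idi1: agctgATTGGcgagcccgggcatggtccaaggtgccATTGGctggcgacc
Srebf2: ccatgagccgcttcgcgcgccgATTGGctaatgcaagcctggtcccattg
Hmgcs1: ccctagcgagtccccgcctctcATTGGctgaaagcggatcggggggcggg
Insig1: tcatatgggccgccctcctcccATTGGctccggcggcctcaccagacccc
Cyp51: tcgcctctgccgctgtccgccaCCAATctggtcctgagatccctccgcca
Mvd: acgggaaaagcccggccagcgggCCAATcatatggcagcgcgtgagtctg
In Hmgcs1 the box shown lay at bases 45 to 41 before the start, nearer to it than the sterol element. A match is a description of these letters, and no binding was measured.

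Within Blank and within CDs many enzymes shared the order of their libraries. Blank 1 was the lowest of the 3 Blank libraries in 17 of 19 enzymes, and the enzymes' summed level was 1583, 2335 and 2236 CPM in Blank 1, 2 and 3. In CDs, replicate 1 was lowest in 13 enzymes and replicate 3 highest in 17, with sums of 839.8, 1055 and 1226 CPM. The Model sums were closer together, at 999, 1061 and 1002 CPM, and no such order was seen there: Model 1 was lowest in 10 enzymes and highest in 7, and Model 2 lowest in 6 and highest in 10. How often each library was lowest or highest over all genes was not computed. The widest ratio of highest to lowest library within Blank was 1.77-fold, for Hmgcs1. Blank 2 and Blank 3 were the libraries with prostate and seminal vesicle transcripts (1497 and 169 CPM, against 2.19 CPM in Blank 1). CDs 1 was the CDs library with pancreatic transcripts (226 CPM), which Model 1 and Model 3 also held. The part of these transcripts in the order and level of the enzymes was not tested. Cell type markers differed between the groups as well, and in whole colon fewer cells of a type and less RNA per cell cannot be told apart. Of 13 epithelial markers, 4 (Epcam, Krt18, Cdx1 and Cdx2) fell in Model and none rose, where 19.6% of all tested genes fell. The median log2 difference of the 13 was -0.74, and 12 of the 13 differences were negative. In 8 of the 13 (61.5%) the Model libraries did not overlap the Blank libraries, against 61.0% of all tested genes. None was at 0 in any library. Their summed level was 23746, 19304 and 28968 CPM in Blank, 20926, 11517 and 11870.4 in Model and 10814, 16000.1 and 22200.4 in CDs. Model 1 and CDs 3 thus lay inside the Blank range for the epithelial markers, and Model 2, Model 3, CDs 1 and CDs 2 lay below it. The summed enzyme level of every Model and CDs library was below the lowest Blank value of 1583 CPM. Of 6 genes of cycling cells, 4 fell in Model, with summed levels of 859 to 1121 CPM in Blank, 246 to 425 in Model and 226 to 706 in CDs. The part of epithelial content and of cell cycling in the enzyme values was not tested beyond these levels.

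**Figure D2:**
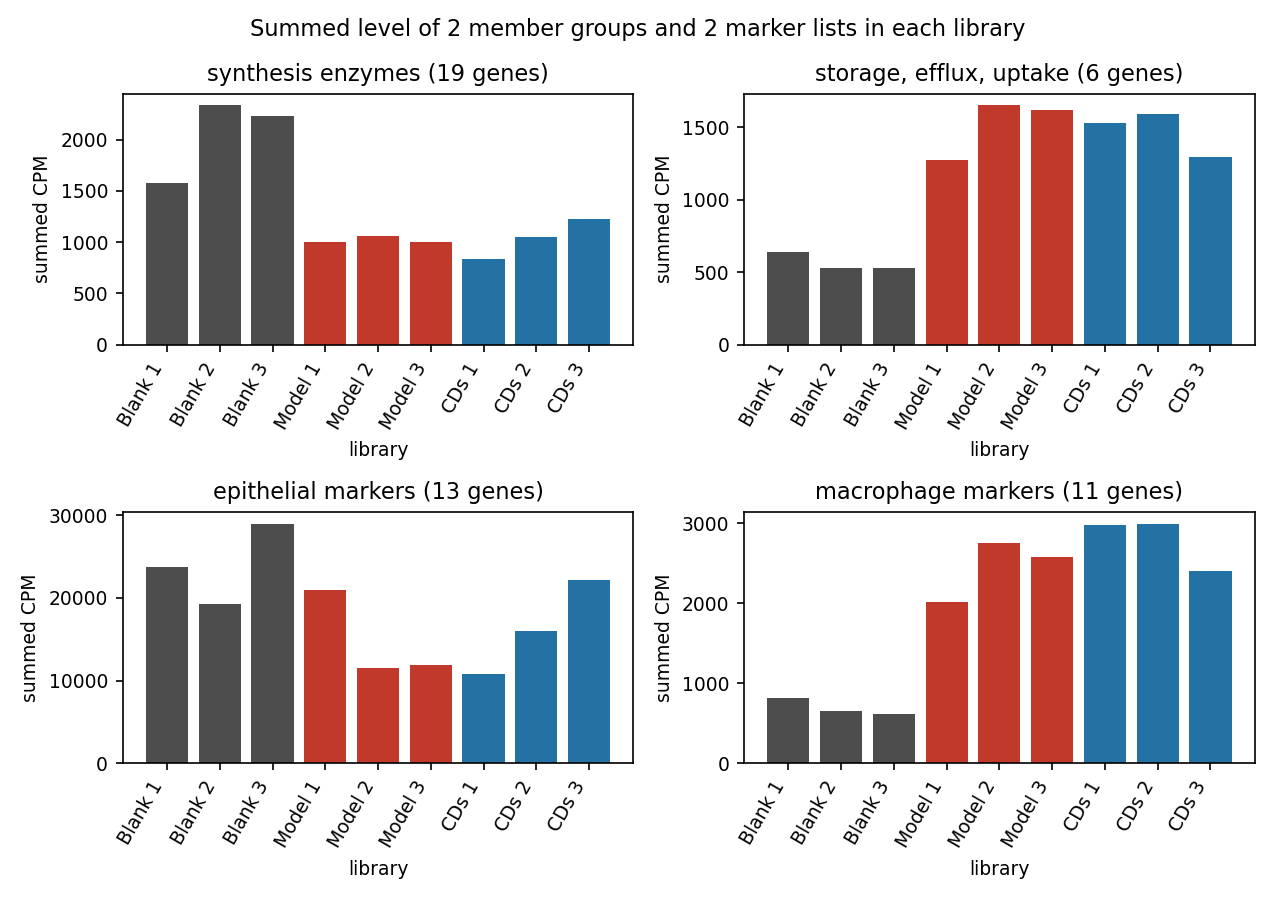
Summed CPM (y axis, from 0) of the 19 synthesis enzymes, the 6 storage, efflux and uptake genes, 13 epithelial markers and 11 macrophage markers in each of the 9 libraries (x axis), coloured by group. The enzyme sum is below 1583 CPM in all 6 libraries of DSS-treated mice. The epithelial sum of Model 1 (20926 CPM) and CDs 3 (22200.4 CPM) is within the Blank range, and that of Model 2, Model 3, CDs 1 and CDs 2 is below it. Of the 13 epithelial markers, 12 had negative log2 differences in Model versus Blank. Their part in the enzyme sum was not tested.

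Among the 6 sensing and regulatory genes, 4 fell in Model and none rose, where 19.6% of all tested genes fell and 44.1% were called in either direction. Their median log2 difference was -0.53. Without Blank 2 and Blank 3, Srebf2 was the 1 regulator still called. Srebf2 encodes SREBP-2, the factor that drives the synthesis enzymes (Ensembl ENSMUSG00000022463, chromosome 15, 82031382 to 82089580, forward strand). It was at 245, 239 and 239 CPM in Blank, 162, 142 and 159 in Model, and 186, 185 and 201 in CDs, so Blank libraries were nearly equal and every Model library was lower (log2 -0.64, SE 0.09, edgeR adjusted p = 0.0011). Unlike the enzymes it did not set Blank 1 apart. It kept its call in all 19 alternatives. Srebf1, which encodes the factor of the fatty acid branch, was at 58.5, 73.5 and 63.1 CPM in Blank, 42.6, 47.1 and 56 in Model, and 45.6, 51.3 and 46.8 in CDs (log2 -0.42, SE 0.13, edgeR adjusted p = 0.0267); this call was lost without Blank 2, Blank 3, Model 1 or Model 2, and its span shares 109 bases with Rai1 on the opposite strand. Insig1, which retains SCAP and is itself an SREBP target, was at 130.4, 224 and 203 CPM in Blank, 73.1, 92.1 and 86.6 in Model, and 61, 69 and 82.6 in CDs, a 2.21-fold fall (log2 -1.15, SE 0.20, edgeR adjusted p = 0.00271). Its paralogue Insig2 did not pass the test, with 53 to 60 CPM in Model against 45.2 to 55.2 in Blank (log2 0.15, SE 0.11, edgeR adjusted p = 0.304). Scap, the escort, was at 41 to 42.8 CPM in Blank and 38.1 to 39.6 in Model, without overlap and without a call (log2 -0.10, SE 0.10, edgeR adjusted p = 0.441). Stard4, a soluble carrier of cholesterol between membranes, was at 260.2, 350.2 and 337 CPM in Blank, 145, 132 and 113 in Model, and 81.1, 147 and 155 in CDs (log2 -1.28, SE 0.24, edgeR adjusted p = 0.00342), with every Blank library above all 6 others. The sterol-responsive genes Insig1 and Stard4 fell in Model while the interval of Scap was -0.34 to 0.13 and that of Insig2 -0.11 to 0.41 on the log2 scale.

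**Figure D3:**
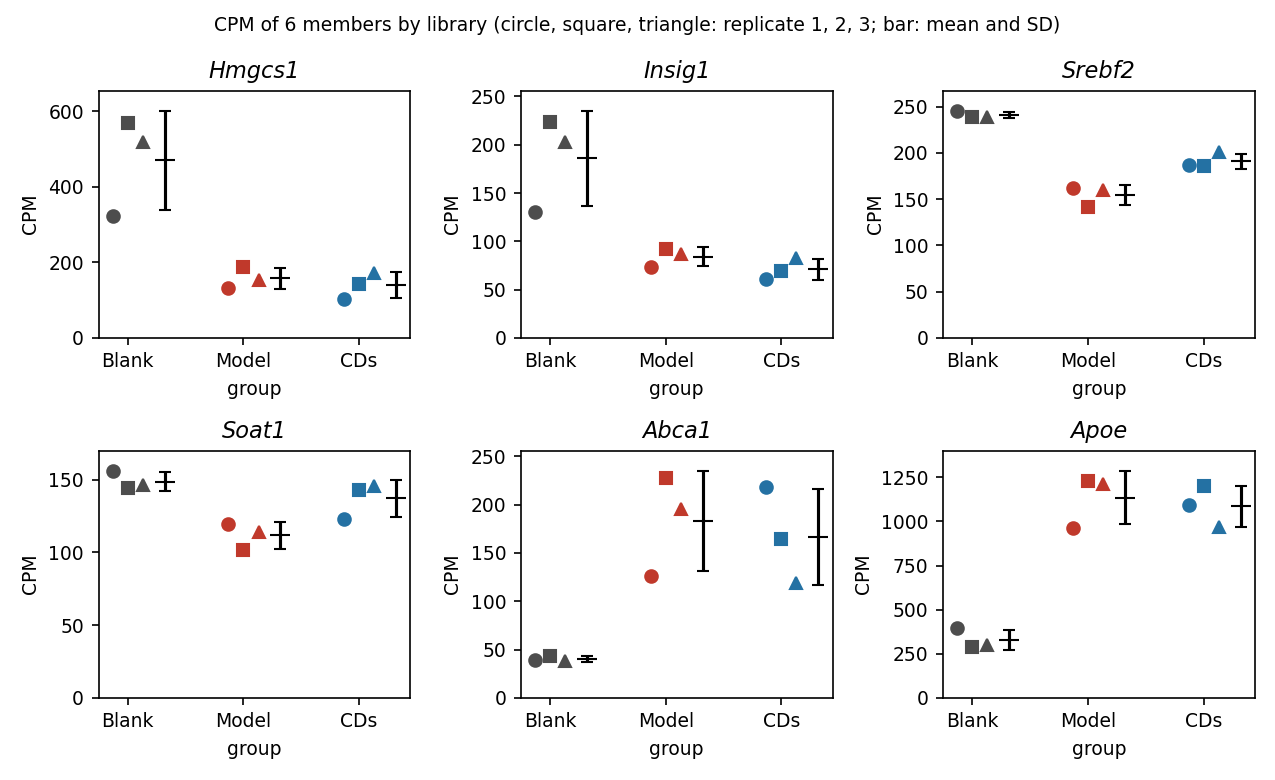
CPM (y axes, from 0) of Hmgcs1, Insig1, Srebf2, Soat1, Abca1 and Apoe by group (x axes); symbols are replicates 1 to 3, and the bars beside them are the mean and SD. Srebf2 and Soat1 are the members whose 3 CDs libraries all lie above the 3 Model libraries, and Abca1 and Apoe are higher in all 6 libraries of DSS-treated mice than in Blank.

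The storage, efflux and uptake genes went mostly the other way. In Model 4 of the 6 rose, 1 fell and 1 did not pass the test, where 24.5% of all tested genes rose and 44.1% were called in either direction. The median log2 difference of the 6 was 1.03. In the fit with Blank 1 as the only Blank library, most calls over all genes were lost, as were those of Abcg1, Soat1 and Scarb1. There the log2 difference was 2.23 for Abca1, 1.53 for Apoe, 1.33 for Abcg1, -0.48 for Soat1 and 0.61 for Scarb1. Abca1, which loads cholesterol onto lipid-poor apolipoproteins (Ensembl ENSMUSG00000015243, chromosome 4, 53030787 to 53159895, reverse strand), had the largest rise of the 31 genes. It was at 39.1, 43.5 and 38.4 CPM in Blank, 126, 227 and 195 in Model, and 218, 164 and 118 in CDs, so Model was 4.54-fold higher (log2 2.18, SE 0.26, edgeR adjusted p = 0.00052). Abcg1, which exports cholesterol to HDL, was at 9.39, 8.99 and 8.49 CPM in Blank, 17.4, 27.2 and 26 in Model, and 35.5, 27.3 and 18 in CDs (log2 1.40, SE 0.26, edgeR adjusted p = 0.00323). In both transporters Model 1 was the lowest Model library and CDs 3 the lowest CDs library. Apoe, the apolipoprotein that macrophages secrete with exported lipid (Ensembl ENSMUSG00000002985, chromosome 7, 19430034 to 19433113, reverse strand), was at 395, 290.4 and 298 CPM in Blank, 961, 1229 and 1215 in Model, and 1092, 1201 and 966 in CDs, a 3.46-fold rise (log2 1.79, SE 0.18, edgeR adjusted p = 0.000312). Abca1 and Apoe kept their calls in all 19 alternatives. Scarb1, the HDL receptor, was at 29.8, 28.8 and 27.3 CPM in Blank, 35.3, 50.9 and 50.1 in Model, and 46.3, 46 and 32.9 in CDs and rose by 1.59-fold (log2 0.67, SE 0.18, edgeR adjusted p = 0.0151); its call was lost without Blank 3, Model 2 or Model 3. Nr1h3 encodes LXR-alpha, the receptor that induces Abca1 and Abcg1. It was at 11.5, 15.6 and 10.3 CPM in Blank, 17.1, 16.9 and 16.7 in Model, and 14.1, 15.4 and 16.4 in CDs, with all Model libraries above Blank but an edgeR adjusted p of 0.054, just over the threshold (log2 0.44 ± 0.16); 5 of 19 alternatives called it, with adjusted p from 0.0126 to 0.169 over all of them. Soat1, which esterifies cholesterol for storage, was the only gene of these 6 that fell, at 156, 144 and 146 CPM in Blank, 119.7, 101 and 114 in Model, and 123, 143 and 146 in CDs (log2 -0.41, SE 0.10, edgeR adjusted p = 0.0123).

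Markers of macrophages and of several other cell types rose in Model, as most of the storage, efflux and uptake genes did. In Model 10 of 11 macrophage markers rose, where 24.5% of all tested genes rose and 19.6% fell. Their median log2 difference was 1.93. Their summed level was 810.2, 647 and 615 CPM in Blank, 2009, 2751 and 2576 in Model and 2981, 2988 and 2399.7 in CDs. None of the 11 was at 0 in any library. The summed level of the 6 storage, efflux and uptake genes was 641, 531 and 529 CPM in Blank, 1277, 1652 and 1617 in Model and 1528, 1596 and 1298 in CDs, of which Apoe made up the largest share in every library. Model 1 was the lowest Model library and CDs 3 the lowest CDs library in both sums. The macrophage sum was 2445 ± 388 CPM in Model and 2789 ± 338 in CDs (mean ± SD). That of the storage, efflux and uptake genes was 1515 ± 208 and 1474 ± 156. All 7 fibroblast markers rose in Model as well, with sums of 1800.1 to 2071 CPM in Blank, 5148 to 11536 in Model and 5492 to 6350 in CDs. Here too Model 1 and CDs 3 were the lowest libraries of their groups. Of 5 adipocyte markers 4 rose in Model, with sums of 31.7 to 48 CPM in Blank, 146 to 194 in Model and 61.9 to 117 in CDs. All 5 neutrophil markers rose, from sums of 3.91 to 5.72 CPM in Blank to 182, 1884 and 347 in Model 1, 2 and 3, with 269 to 765 in CDs. The part of macrophage, fibroblast, adipocyte and neutrophil content in the efflux values was not tested. The summed level of 4 hepatocyte markers was 219 to 247 CPM in Blank, 155 to 333 in Model and 160.2 to 187 in CDs, most of it from Apob, which the gut also expresses; of the 3 tested, 2 fell in Model and none rose, and their part in the members' values was not tested. Ttr was at 3.2 to 31.3 CPM, Alb at most 2.26 CPM and Cyp3a11 at most 0.128 CPM, with no read of Cyp3a11 in 6 of the 9 libraries.

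Per gene length, the order of levels within the set shifted between groups. The deposited FPKM values (fragments scaled by gene length and library size) allow this comparison between genes. Apoe ranked 1st of the 31 in every group, with 149 ± 26.1 FPKM in Blank, 535 ± 82.4 in Model and 521 ± 67.3 in CDs (mean ± SD, n = 3). Hmgcs1 ranked next in every group, at 99.2 ± 27.6, 34.8 ± 7.54 and 30.9 ± 6.19 FPKM. In Blank, Insig1 (58.2 ± 15.4 FPKM) and Stard4 (54.8 ± 8.5 FPKM) came after them and did not differ beyond their spread. Abca1 moved from rank 28 in Blank (3.77 ± 0.238 FPKM) to rank 9 in Model (17.9 ± 5.58 FPKM) and rank 11 in CDs (16.6 ± 5.82 FPKM). At the lower end were Abcg1 in Blank (1.19 ± 0.0534 FPKM) and Fdps in Model (0.626 ± 0.232 FPKM) and CDs (0.583 ± 0.246 FPKM).

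The comparison of CDs with Model asks whether the carbon dots altered these genes in mice that received DSS. No member passed the test, and neither did any of the 14921 genes (0.00% called by edgeR, in either direction; smallest adjusted p 0.891). At an unadjusted p under 0.05 edgeR gave 788 genes, 2 of them members; DESeq2 called 50 genes and no member, and limma called none. The median log2 difference was 0.01 for the enzymes, -0.02 for the regulators and -0.09 for the storage, efflux and uptake genes, against 0.02 over all genes. Among the enzymes, the mean of CDs lay between Blank and Model in 11 of 19 and beyond Model in 8. The matching shares over all genes were not computed. The 2 enzymes with the smallest p were Ggps1 (log2 -0.20 ± 0.09, 95% interval -0.41 to 0.01) and Ebp (log2 0.21 ± 0.16, 95% interval -0.14 to 0.57), both with an edgeR adjusted p of 0.936. The 95% intervals show what these 3 libraries a group could not resolve: -0.75 to 0.40 for Hmgcs1, -0.38 to 0.39 for Sqle and -0.33 to 0.93 for Dhcr7 on the log2 scale.

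Srebf2 and Soat1 were the members with an unadjusted p under 0.05, and both were higher in CDs. Srebf2 was at 186, 185 and 201 CPM in CDs against 162, 142 and 159 in Model, so that the groups did not overlap (log2 0.31 ± 0.09, 95% interval 0.09 to 0.52, edgeR adjusted p = 0.891). Its adjusted p ranged from 0.0706 to 1 over the 19 alternatives. Soat1 was at 123, 143 and 146 CPM against 119.7, 101 and 114 in Model (log2 0.30 ± 0.10, 95% interval 0.06 to 0.53, edgeR adjusted p = 0.914). Nr1h3 was the third member without overlap, with CDs below Model (log2 -0.14 ± 0.16, edgeR adjusted p = 0.939). These 3 of 31 stand against 7.99% of all genes whose CDs and Model libraries did not overlap, and against the 0.00% called. Insig1, the second regulator by p, had a log2 difference of -0.24 ± 0.20 (edgeR adjusted p = 0.936). Without Model 1, Model 3 and CDs 1, CDs 2 and 3 were set against Model 2 alone, with the spread taken from the other groups. In that fit 1241 genes passed the edgeR threshold, among them 2 members, Dhcr7 (log2 0.86, edgeR adjusted p = 0.0127) and Soat1 (log2 0.51, edgeR adjusted p = 0.0462); with 1 Model library this compares libraries, and it has no replicate check on the Model side.

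**Figure D4:**
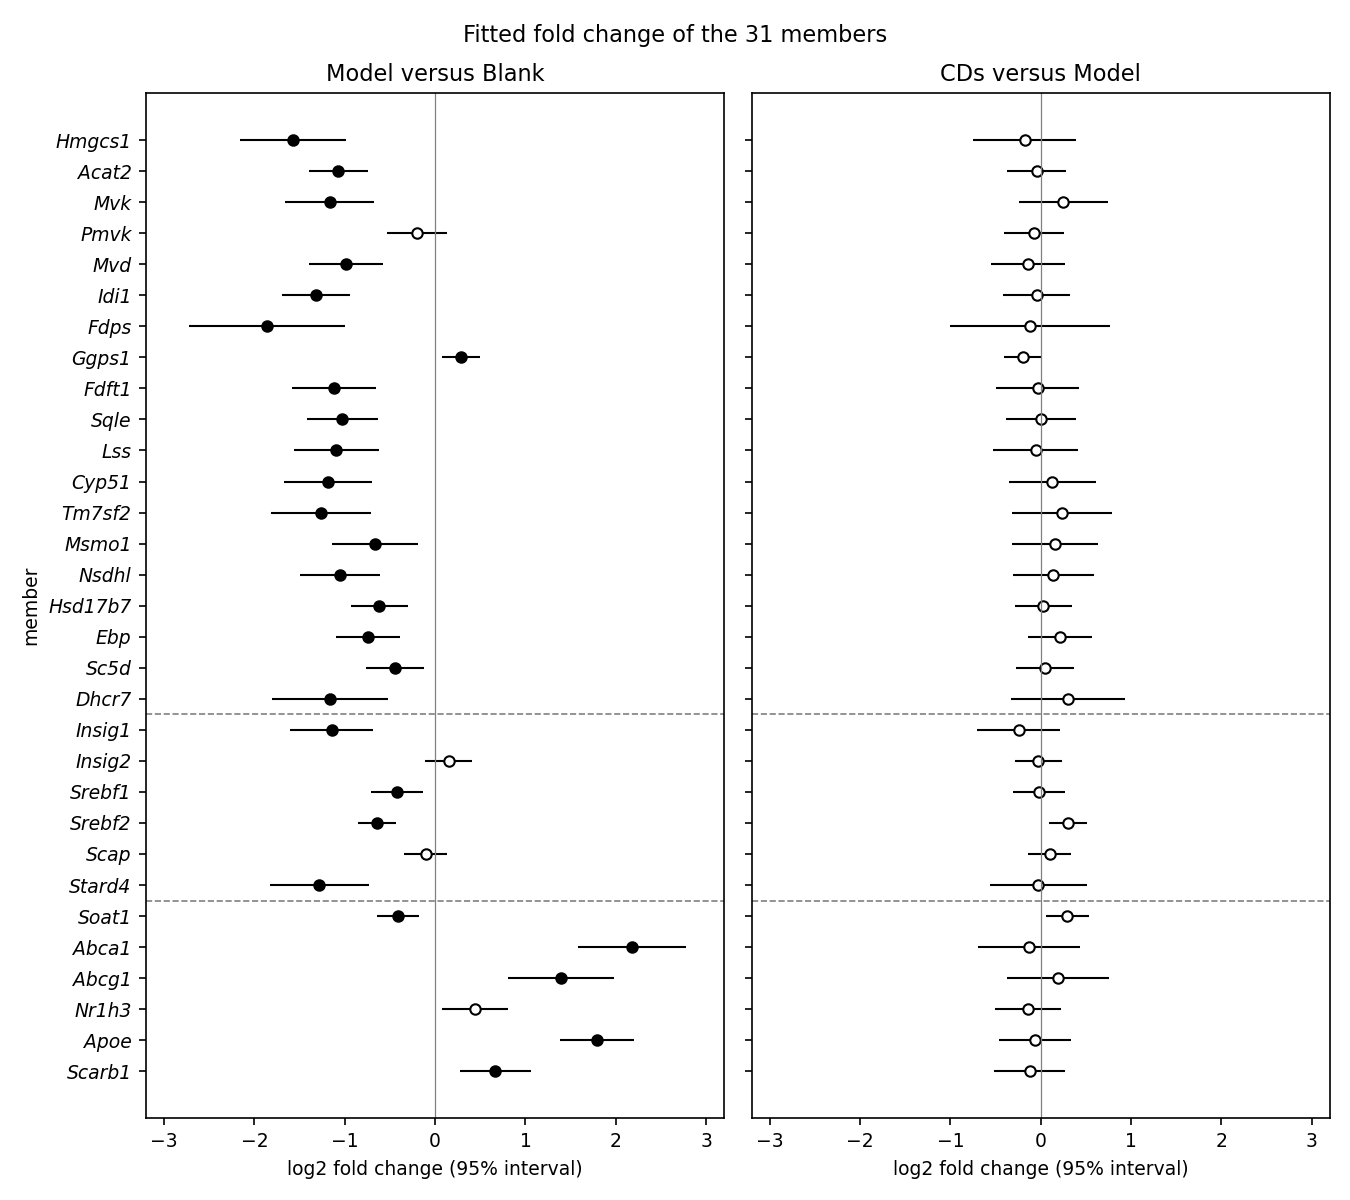
Fitted log2 fold change (x axis) with its 95% interval for each of the 31 genes in Model versus Blank and in CDs versus Model; filled points passed the edgeR test at an adjusted p under 0.05 and open points did not. The enzymes lie mostly near -1 at left, and no point at right is filled.

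CDs and Model share the Blank libraries as their control, so their values against Blank are given side by side and are not independent. In CDs versus Blank, 15 of 19 enzymes fell and none rose, with 13.8% of all tested genes called lower, 21.8% higher and 35.6% in either direction. The median log2 difference of the enzymes was -1.02. Hmgcs1 was at -1.75 in CDs and -1.57 in Model, Idi1 at -1.37 and -1.32, and Sqle at -1.02 and -1.03 (log2 differences from Blank). Pmvk, Ggps1, Msmo1 and Sc5d did not pass the test in CDs, with log2 differences of -0.27, 0.08, -0.51 and -0.40. Ebp (log2 -0.53, SE 0.16, edgeR adjusted p = 0.0283) and Dhcr7 (log2 -0.87, SE 0.28, edgeR adjusted p = 0.0397) passed, but neither call held without any 1 of the 3 Blank libraries; that of Ebp was also lost without CDs 1, and that of Dhcr7 without Model 3 or CDs 2. The regulators Insig1 (-1.39), Srebf1 (-0.44), Srebf2 (-0.34) and Stard4 (-1.31) fell. The calls of Srebf2 (edgeR adjusted p = 0.0225) and Srebf1 (edgeR adjusted p = 0.0267) were lost without Blank 2 or Blank 3; that of Srebf2 was also lost without Blank 1 or CDs 2, and that of Srebf1 without CDs 1 or CDs 3. Abca1 (2.05), Abcg1 (1.59), Apoe (1.73) and Scarb1 (0.54) rose, and the call of Scarb1 (edgeR adjusted p = 0.0392) was lost in 10 of 19 alternatives, among them leaving out any 1 of the Blank libraries. Soat1, which fell in Model, was at -0.12 without a call (edgeR adjusted p = 0.394). Without Blank 2 and Blank 3, 1 Blank library was left. Most calls over all genes were then lost in CDs versus Blank, as were those of all members but Idi1. In that fit 18 of 19 enzymes had negative log2 differences with a median of -0.67, and Idi1 was at -0.95.

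Other genes of sterol and fatty acid metabolism were read from 4 further lists. Of 10 genes of the SREBP fatty acid branch, 6 fell and 1 rose in Model versus Blank, where 19.6% of all tested genes fell and 24.5% rose; the median log2 difference was -0.93. Fasn, fatty acid synthase, was at 172, 205 and 208 CPM in Blank, 95.6, 81.5 and 98.9 in Model, and 102, 97.8 and 93.1 in CDs (log2 -1.08, SE 0.11, edgeR adjusted p = 0.000336). Acaca, which makes malonyl-CoA (log2 -0.79, SE 0.09, edgeR adjusted p = 0.000436), and the desaturase Scd2 (log2 -1.73, SE 0.23, edgeR adjusted p = 0.000727) fell in all 19 alternatives. Scd1, a close relative of Scd2, had the smallest p of this list in CDs versus Model (log2 -0.61 ± 0.27), followed by Me1 (log2 -0.42 ± 0.25), both with an edgeR adjusted p of 0.936.

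Of 13 tested genes of uptake and intracellular sterol traffic, 5 rose and 2 fell in Model, where 24.5% of all tested genes rose and 19.6% fell. The 3 with the smallest p were Msr1, a scavenger receptor of macrophages, at 16.1, 11.9 and 7.82 CPM in Blank, 63.6, 122 and 101 in Model, and 90.5, 69.6 and 67.8 in CDs (log2 2.996, SE 0.31, edgeR adjusted p = 0.000331), the endocytic receptor Lrp1 (log2 1.78, SE 0.20, edgeR adjusted p = 0.000428) and Lipa, which frees cholesterol from its esters in lysosomes (log2 0.72, SE 0.10, edgeR adjusted p = 0.000937). In CDs versus Model, Lrp1 (log2 -0.46 ± 0.20) and Vldlr (log2 -0.45 ± 0.24) had the smallest p, with an edgeR adjusted p of 0.936 for each. Against Model 2 alone, the highest Lrp1 library, with CDs 1 also left out and the spread taken from the other groups, the log2 difference of Lrp1 was -0.83 (edgeR adjusted p = 0.0109). Npc1l1, the intestinal sterol importer, was at most 0.343 CPM and was not tested.

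Of 13 tested genes of efflux, LXR response and oxysterols, 8 rose and 1 fell in Model, where 24.5% of all tested genes rose and 19.6% fell. Ch25h makes an oxysterol that blocks SREBP processing. It was low in Blank, and stood at 0.514, 0.617 and 0.664 CPM in Blank, 4.65, 10.3 and 11.3 in Model, and 7.04, 6.34 and 4.63 in CDs (log2 3.86, SE 0.40, edgeR adjusted p = 0.000331). Cyp7b1, which metabolises that oxysterol further, was at 1.41, 2.06 and 1.48 CPM in Blank, 11.5, 51.8 and 22.2 in Model, and 16.1, 11.7 and 11.5 in CDs (log2 4.11, SE 0.55, edgeR adjusted p = 0.000742); without Model 2, its highest library, the log2 difference was 3.35. Pltp, a phospholipid transfer protein and LXR target, was at 19, 17.9 and 17.5 CPM in Blank, 33.3, 35.4 and 39.5 in Model, and 48.7, 54.7 and 41.5 in CDs (log2 0.99, SE 0.12, edgeR adjusted p = 0.000608). All CDs libraries of Pltp were also above all Model libraries, without a call (log2 0.42 ± 0.12, edgeR adjusted p = 0.891). Abcg5, a sterol exporter of the gut epithelium, was the other gene named in CDs versus Model (log2 0.85 ± 0.30, edgeR adjusted p = 0.927). In the fit of CDs 2 and 3 against Model 2 alone, whose spread comes from the other groups, Abcg5 had a log2 difference of 1.33 (edgeR adjusted p = 0.0358). Apoa1 was at most 0.320 CPM, and Hsd3b7 had no read in any library.

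Of 7 genes that cut SREBP precursors or drive sterol-dependent protein degradation, 1 fell and none rose in Model, where 44.1% of all tested genes were called. Erlin2, part of that degradation machinery, was the 1 that fell (log2 -0.47, SE 0.13, edgeR adjusted p = 0.0206), and its call was lost without any 1 of Blank 1, Blank 2, Model 2 or Model 3. The proteases that release SREBP, Mbtps2 (log2 -0.23 ± 0.11, edgeR adjusted p = 0.115) and Mbtps1 (log2 -0.17 ± 0.10, edgeR adjusted p = 0.19), did not pass the test. In CDs versus Model the smallest p belonged to Erlin1 (log2 0.16 ± 0.16) and Mbtps2 (log2 0.11 ± 0.11), both with an edgeR adjusted p of 0.936. Erlin1 had a log2 difference of 0.58 (edgeR adjusted p = 0.0348) with CDs 2 and 3 against Model 2 alone and the spread of the other groups.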

How the data were processed

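Read counts and FPKM values of 21959 genes in 9 libraries were deposited by the authors, per the file headers. Reads were handled with HISAT2 2.1.0, HTSeq 0.9.1 and fastp 0.22.0, per the submitters' processing notes. Neither genome build nor strand setting is given in the sources used here, so gene coordinates are those of the table. Per the labels' protocols, poly-A RNA was captured and random-primed without a strand-marking step, so overlapping genes are uncertain. The deposited FPKM equalled count over length and library total in 100% of values (relative tolerance 1e-06). All 9 libraries entered 1 edgeR 4.0.16 fit (R 4.3.3; filterByExpr, TMM, quasi-likelihood F test, two-sided, Benjamini-Hochberg over 14921 genes, threshold 0.05), which was tested on simulated data. SE is the log2 difference over the root of F. Libraries carry replicate numbers in their titles, and the series states that replicates are biological; they differed by more than sampling noise. The members and all gene lists were chosen with earlier results of these data known, and support nothing by themselves. Every member called between Model and Blank is given in full, as are, per role, the 2 members of smallest p between CDs and Model; of each further list, 3 and 2 genes by these p. Alternatives were DESeq2 1.42.0, limma 3.58.1 on log2(FPKM + 1) and log2(FPKM + 0.1), RLE and upper quartile scaling, no filter, the 6 libraries compared alone, a replicate block, each library left out, and the libraries with pancreatic or prostate transcripts left out.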

Additional observations from a re-analysis of the deposited data

How the results depend on the processing

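In Model versus Blank, the values of the named genes kept their direction in all 19 alternatives. Over those genes and alternatives, 760 values stayed on the same side of the threshold, 52 lost their call and 5 gained one. Leaving out Blank 2 and Blank 3 left the most members without a call: in Model versus Blank 1536 genes, 2 enzymes, 1 regulator and 2 storage, efflux and uptake genes were called, and in CDs versus Blank 465 genes, 1 enzyme, 0 regulators and 0 storage, efflux and uptake genes. With 1 Blank library left, that fit has fewer samples and assumes that the lone library varies like the other groups. In CDs versus Model, DESeq2 called 50 genes, and leaving out Model 1, Model 3 and CDs 1 (Model 2 alone, with the spread of the other groups) gave 1241 genes, with 1 enzyme and 1 storage gene; the cause was not tested. Leaving out 1 library at a time, CDs versus Blank gave 3398 to 5540 genes over the whole table, lowest without Blank 2, and 2 to 4 regulators, 2 without Blank 2 or Blank 3. Among the genes without a call, Insig2 in CDs versus Blank turned to -0.023 without Blank 2 and Blank 3, and Scap turned from -0.0065 to 0.055 with limma on log2(FPKM + 1) and 0.062 on log2(FPKM + 0.1); leaving out 1 library gave -0.10 to 0.10 for Scap. The labels do not say whether a replicate number marks a shared animal, litter or day. Same-numbered deviations from the group means correlated between -0.37 and 0.21, and between 0.06 and 0.17 in CDs versus Blank. With 3 libraries a group these values cannot decide whether the libraries are paired. A fit with the replicate block called 16 enzymes (Ggps1 and Sc5d lost) in Model versus Blank and 13 in CDs versus Blank (Ebp and Dhcr7 lost, as was Scarb1 among the uptake genes). Depth limits genes near 3 reads per library, such as Npc1l1 and Apoa1, which were not tested.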
